A study of Mus musculus with 4 samples.

Results

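The R1 line of mouse embryonic stem (ES) cells was compared with multipotent germline stem (mGS) cells, 2 of the 4 arrays of the series, with 1 array for each. mGS cells are cells with properties of ES cells that arise in cultures of germline stem (GS) cells, the cultured form of spermatogonial stem cells. R1 is a single established line, known as derived from a male embryo. The Y-linked genes read low or under the floor on the ES array, and the reason was not tested. ES and mGS cells were both grown in a standard ES cell medium. The other arrays, of GS cells and of Trp53 KO GS cells whose title also names ICR, came from a GS medium based on StemPro-34; they serve here only to give levels. The strain and age of the mice behind the GS and mGS cultures, the use of feeder cells and the passage are not given in the sources used here. With 1 array per group there is no spread between samples, so no p-value is given and every difference describes these 2 arrays. The comparison takes in all 18193 genes named by the platform with a single symbol, of which 11816 were bright enough on at least 1 array to give a difference. Genes were divided into those of fibroblasts or matrix, of germ cells and of developmental regulation, with pluripotency genes as the check of identity.

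Fibroblasts build the extracellular matrix from fibrillar collagens, glycoproteins and small proteoglycans, and their collagens are hydroxylated, trimmed and crosslinked by dedicated enzymes. Germ cells express genes that most other cells keep silent, among them the piRNA pathway, which represses transposons, and the proteins that pair and recombine chromosomes in meiosis. Many germ cell promoters are rich in CpG and are kept methylated or bound by repressors in other cells. ES cells carry a network of transcription factors around Pou5f1, Sox2 and Nanog, and differentiation is directed by regulators that this network holds at low levels.

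Promoter sequence was looked at for genes at the extremes of the comparison. The sequences are RefSeq's, on GRCm38.p6, from 250 bases before to 50 after a gene's annotated start. The first pair belongs to the germ cell genes Hormad1 (chr3:95559427-95559726, + strand) and Mael (chr1:166238695-166238994, - strand), 11.7-fold (at least) and 7.96-fold lower in ES than in mGS cells. Capitals mark CACGTG, the E-box, which reads the same on both strands and is bound by the Max family; it began at positions -57 and -20 in Hormad1 and at -223 in Mael.
Hormad1: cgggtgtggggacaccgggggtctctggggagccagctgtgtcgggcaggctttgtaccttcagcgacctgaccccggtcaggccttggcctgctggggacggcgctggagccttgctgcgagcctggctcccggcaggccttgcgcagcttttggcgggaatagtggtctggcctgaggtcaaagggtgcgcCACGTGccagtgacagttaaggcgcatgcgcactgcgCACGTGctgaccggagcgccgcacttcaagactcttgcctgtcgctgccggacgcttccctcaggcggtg
Mael: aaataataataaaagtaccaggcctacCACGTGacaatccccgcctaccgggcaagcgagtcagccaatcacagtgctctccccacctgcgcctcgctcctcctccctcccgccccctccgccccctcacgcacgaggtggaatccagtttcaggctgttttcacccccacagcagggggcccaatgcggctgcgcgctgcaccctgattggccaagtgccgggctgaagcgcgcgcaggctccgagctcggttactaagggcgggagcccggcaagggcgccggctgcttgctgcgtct
The second pair belongs to the matrix metalloproteinase gene Mmp3 (chr9:7445572-7445871, + strand) and the calcium-binding protein gene S100a4 (chr3:90603520-90603819, + strand), 17.9-fold (at least) and 44.1-fold higher in ES cells. Capitals mark TATAAA, the letters of the TATA box, and in Mmp3 also TGACTCA, the AP-1 site. Both were searched on both strands, and the AP-1 match of Mmp3 lies on the reverse strand at -46. The TATAAA match began at -7 in Mmp3 and at -31 in S100a4.
Mmp3: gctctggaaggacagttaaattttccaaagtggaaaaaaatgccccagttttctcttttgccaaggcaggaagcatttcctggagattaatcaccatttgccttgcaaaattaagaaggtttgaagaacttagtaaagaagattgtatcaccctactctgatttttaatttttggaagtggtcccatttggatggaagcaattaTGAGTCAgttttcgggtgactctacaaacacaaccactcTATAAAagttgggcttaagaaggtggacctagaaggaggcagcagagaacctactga
S100a4: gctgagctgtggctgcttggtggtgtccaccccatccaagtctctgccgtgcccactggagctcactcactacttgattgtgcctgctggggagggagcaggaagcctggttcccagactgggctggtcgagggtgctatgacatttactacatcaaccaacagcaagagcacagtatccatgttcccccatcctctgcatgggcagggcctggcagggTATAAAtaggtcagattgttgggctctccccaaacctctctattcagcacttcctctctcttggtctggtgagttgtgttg
The E-box was frequent in promoters of the germ cell lists whether or not the gene differed. It occurred in 32 of 116 promoters (27.6%) of 95 listed germ cell genes, and in 7 of 28 promoters of the 23 matched genes that were 2-fold or more lower in ES cells, as were 5.13% of all genes compared. Among all 32851 promoters its share was 7.15%, and among the 11378 with at least 15 CpG, a minimum chosen after seeing the data, it was 11.3%. The germ cell promoters held a median of 17 CpG, against 7 in all promoters. Matches to TATAAA were counted on either strand anywhere in the window. They occurred in 19 of 74 promoters (25.7%) of 66 fibroblast or matrix genes 2-fold or more higher in ES cells. The whole class had them in 26 of 130 promoters, and all promoters in 13.6%. The AP-1 site was near the background, 6.76% against 5.20%. A match describes letters in this window and is no evidence of binding.

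The arrays were close over most genes and apart at few. Signals are the deposited intensities after quantile normalization, a floor was set at the array median, a signal of 82.7, and a difference against a value under it is a bound, written as at least N-fold. Of 18193 named genes, 11816 were above the floor on at least 1 of the arrays, 10185 of them on both. The median log2 difference, ES minus mGS, was 0.0031, and 88.0% of genes lay within 2-fold. Differences of 2-fold or more were found for 815 genes with the higher signal in ES cells, 6.9% of those compared, and for 606 with the lower, 5.13%, together 12%. Of 631 of these genes with another probe set to compare, 534 had all of them in the same direction and 17 had one at least 2-fold the other way. The scatter plot of both arrays shows most points between the 2-fold lines and the fibroblast or matrix genes above them.

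**Figure D1:**
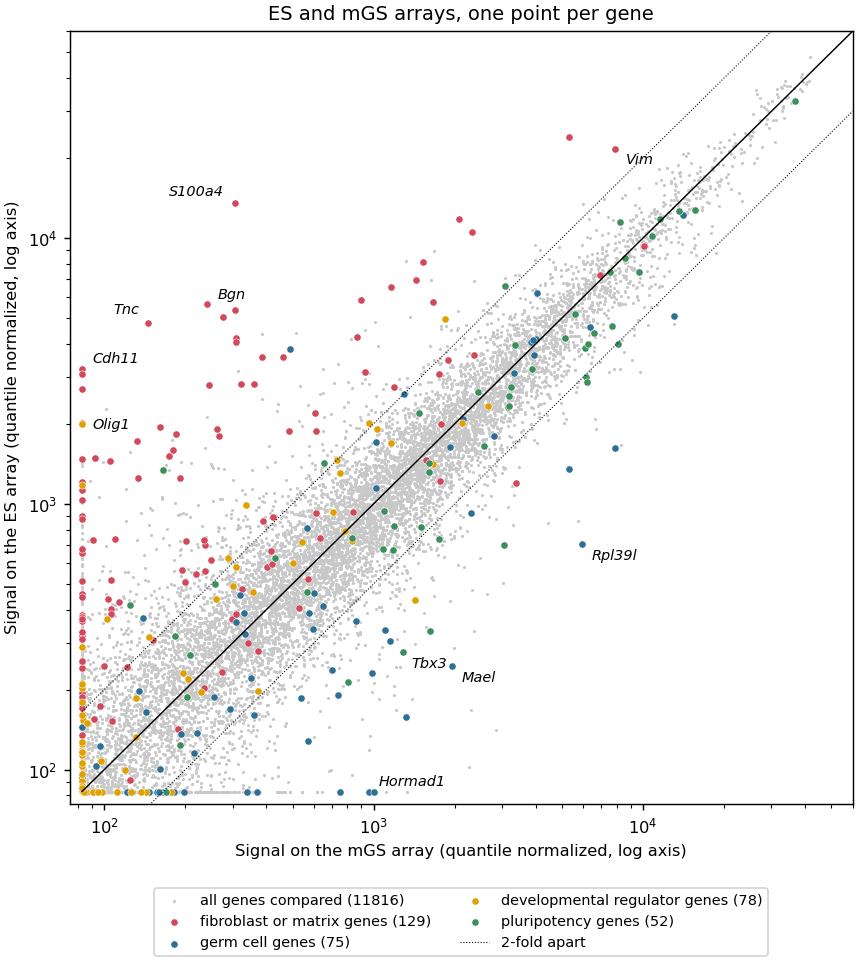
Signal of each gene on the mGS array (x) and the ES array (y), both quantile normalized and on log axes, with values under the floor of 82.7 drawn at it; colours mark the gene classes, the solid line is equality and the dotted lines are 2-fold. S100a4 stands at 306 on mGS and 13496 on ES, while the germ cell gene Mael stands at 1956 and 246.

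Technical controls differed in part. The poly-A control dap, added before labelling, read a median over 3 probe sets of 252 with mGS RNA and 2489 with ES RNA, and thr, another, 28.7 and 482; GS and Trp53 KO GS read 275 and 2982 for dap. The hybridisation controls were close, 890 and 814 for BioB and 27583 and 30354 for Cre. The ratio of 3' to 5' signal, a sign of RNA quality, was 0.830 on mGS and 0.786 on ES for Gapdh, and 1.35 and 1.31 for beta-actin. Their part in the differences below was not tested.

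Fibroblast and matrix genes were higher on the ES array by the median of every functional group, least for collagen processing, a log2 difference of 0.33. Of 156 such genes on the array 129 could be compared, 27 being under the floor on both arrays; 91 (70.5%) reached 2-fold with ES higher, against 6.9% of all genes compared, and 1 with ES lower. Their median log2 difference was 1.84, against 0.0031 over all genes. For the counts of the functional groups below, 6.9% of all genes compared were 2-fold higher on ES and 5.13% lower. The summed signal of all 156 was 79577 in mGS and 273790 in ES cells, against 52092 on GS and 66682 on Trp53 KO GS. Above the floor were 88 of them on mGS and 128 on ES, against 59.9% and 61.0% of all named genes. All 47 members at least 2-fold apart that had another probe set kept the same direction there. Fewer cells of a type and less RNA per cell cannot be told apart in such bulk samples. The class held 56 of the 191 genes at least 4-fold higher on ES (29.3%), which is 43.4% of its compared members, where 1.62% of all genes were; none of its listed members was among the 75 genes 4-fold lower (0.635% of all), though the laminin gene Lama3 and the matrix gene Mmrn2, which the lists do not hold, were.

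**Figure D2:**
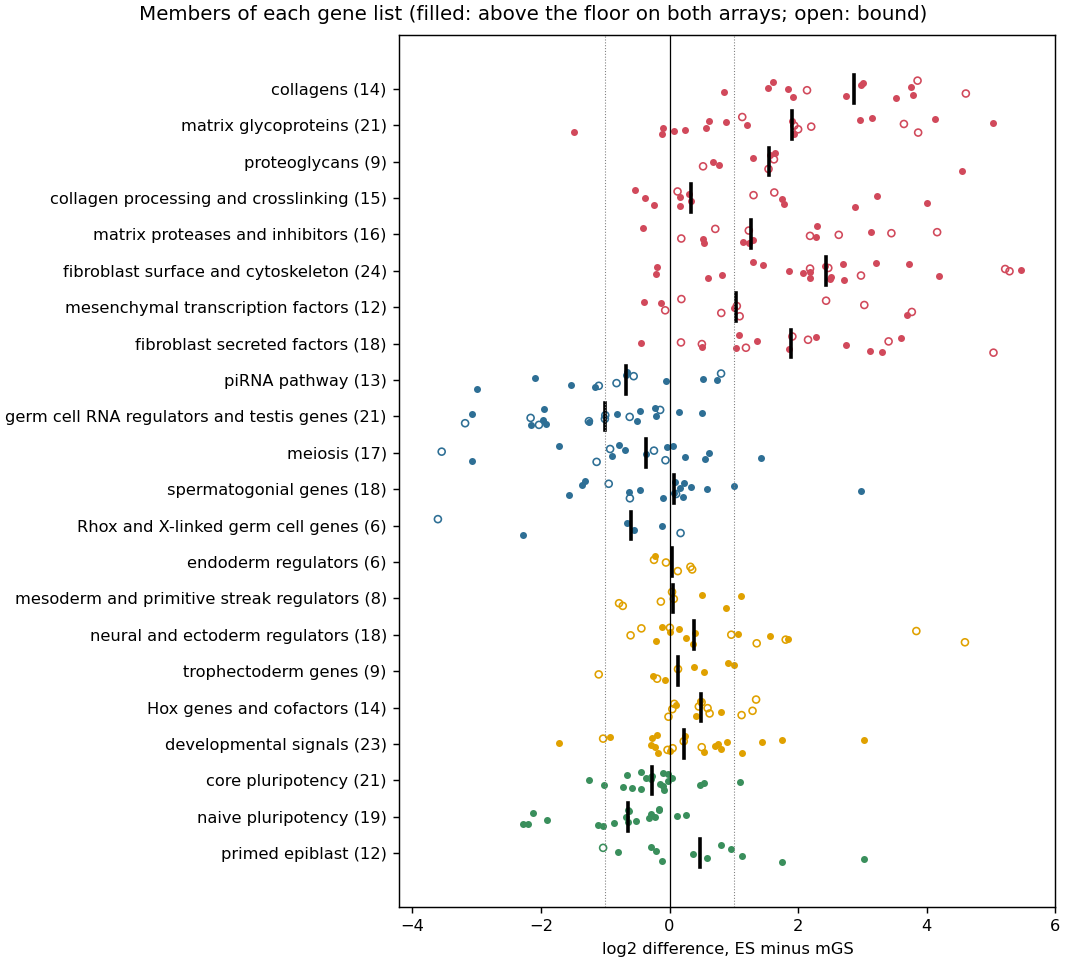
log2 difference (ES minus mGS, x axis) of each compared member of each gene list, with the number compared in parentheses; filled points were above the floor on both arrays, open points are bounds, black bars are medians and dotted lines mark 2-fold. The collagens have a median of 2.86 and the naive pluripotency genes one of -0.64.

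Collagens made the most uniform group, in which 13 of 14 compared genes reached 2-fold, all with ES higher. Their median log2 difference was 2.86, and their summed signal was 2222 on GS, 3303 on Trp53 KO GS, 2893 on mGS and 21231 on ES. The fibrillar collagen gene Col1a1 read 245 on mGS and 2805 on ES, Col1a2 read 310 and 4195, and Col5a2 read 359 and 2821. The beaded-filament collagen gene Col6a3 read 105 on mGS and 1451 on ES, 13.8-fold, and Col6a1 and the fibrillar Col3a1 were at least 14.5-fold and 24.4-fold higher. The basement membrane collagens Col4a1 and Col4a2, which many epithelial cells also make, were 3.05-fold and 3.58-fold higher. The remaining member, Col5a3, had a log2 difference of 0.85, and Col11a1, Col14a1 and Col15a1 were under the floor on both arrays.

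Matrix glycoproteins were mixed: 13 of 21 had the higher signal in ES cells by 2-fold, 1 the lower, and the median was 1.91. When probe sets of a gene were averaged instead of taking the brightest, 9 of 19 were higher and the median was then 0.88. Tnc, the glycoprotein tenascin C, read 146 on mGS and 4771 on ES. Fbln2, a fibulin of basement membranes and elastic fibres, read 306 and 5361, and the matricellular Thbs1 read 461 and 3576. Postn, or periostin, and Efemp1, a fibulin, were at least 12.5-fold and 14.6-fold higher. By contrast fibronectin, Fn1, read 10096 on mGS and 9327 on ES by its brightest probe set, though another was 2.75-fold lower on ES. Sparc, a collagen-binding glycoprotein, read 6906 and 7285. Laminin chain genes ranged widely: Lamc1 and Lamb1 had log2 differences of -0.10 and 0.62, while Lama1 and Lama3, which are not in this list, were 2.17-fold and 22.1-fold lower on ES. Nid2, a basement membrane nidogen, was 2.82-fold lower on ES, with signals of 3386 and 1203, while its relative Nid1 was 2.32-fold higher.

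Of 9 proteoglycan genes 6 reached 2-fold with ES higher; the median was 1.54. Averaging probe sets left 4 of 8 and a median of 0.92. The small leucine-rich proteoglycan gene Bgn read 241 on mGS and 5629 on ES and stood far from the others; Dcn, a collagen-binding relative of it, was at least 3.08-fold higher, and Vcan and Sdc2 2.96-fold and 3.12-fold. Lum, Fmod, Aspn and Prelp were under the floor on both arrays, so not every fibroblast proteoglycan was present on the ES array.

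Enzymes that process collagen had differences of unlike size. Of the lysyl oxidases that crosslink collagen, Loxl3 read 92.8 on mGS and 1483 on ES. Loxl1 was 9.38-fold and Lox 7.35-fold higher, while Loxl4 had a log2 difference, as a bound, of 0.12. The collagen chaperone gene Serpinh1 and the procollagen C-proteinase enhancer gene Pcolce were 3.37-fold and 3.45-fold higher. Most hydroxylase genes that act inside the cell lay within 2-fold: P4ha1, P4ha2, Plod1, Plod2, Plod3 and P3h1 had log2 differences between -0.53 and 0.33. The hydroxylase gene P3h3 was an exception, with a log2 difference, as a bound, of 1.31. In all 7 of 15 reached 2-fold, and the median was 0.33. Averaging probe sets left 5 of 14 and a median of 0.40.

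Matrix proteases and their inhibitors gave 11 of 16 genes 2-fold or more higher in ES cells and a median of 1.27. The metalloproteinase gene Mmp3 was under the floor on mGS and read 1479 on ES, and Mmp13 was at least 6.20-fold higher. Their inhibitors were higher as well: Timp1 read 1441 on mGS and 6968 on ES, Timp2 871 and 4246, and Timp3 was at least 10.9-fold higher. Serpinf1, the secreted serpin PEDF, was 8.77-fold higher. The gelatinase genes Mmp2 and Mmp9 had smaller differences, 2.36-fold for Mmp2 and a log2 difference of 0.51 for Mmp9.

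**Figure D3:**
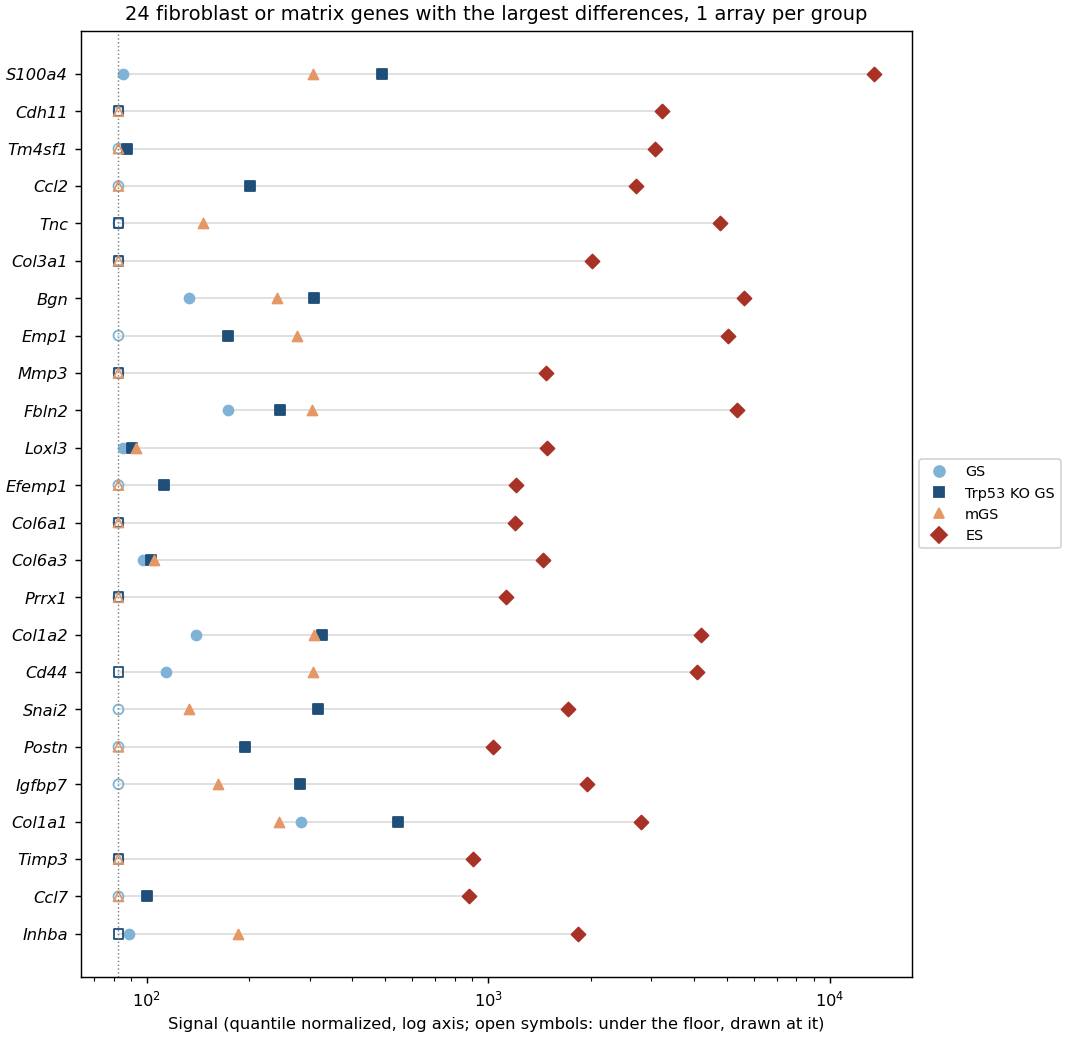
Signal (x, quantile normalized, log axis) of the 24 fibroblast or matrix genes with the largest differences on each of the 4 arrays; open symbols were under the floor and are drawn at it. In every row the ES array is highest: Col1a1 reads 283 on GS, 543 on Trp53 KO GS, 245 on mGS and 2805 on ES.

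The fibroblast surface and cytoskeleton had 20 of 24 genes 2-fold or more higher in ES cells, 17 of them 4-fold or more, and a median of 2.44. S100a4, a calcium-binding protein of fibroblasts and motile cells, read 85.5 on GS, 490.0 on Trp53 KO GS, 306 on mGS and 13496 on ES, the widest gap of any gene measured on both. The mesenchymal cadherin gene Cdh11 was under the floor on mGS and read 3227 on ES, and Tm4sf1, a tetraspanin-like membrane protein gene, was at least 37.2-fold higher. The membrane protein gene Emp1 read 276 and 5033. The hyaluronan receptor gene Cd44 read 307 and 4080, the surface glycoprotein gene Thy1 192 and 1256, and the caveolar gene Cav1 384 and 3562. Both receptors for platelet-derived growth factor, which mark fibroblasts, were bounds: Pdgfrb at least 7.87-fold and Pdgfra at least 4.55-fold higher. Contractile genes were also higher, with smooth muscle actin, Acta2, at 2319 on mGS and 10566 on ES, and Tagln at 1162 and 6541. Vim, the intermediate filament vimentin, was abundant on both arrays, 7871 and 21544. The adhesion genes Cdh2, Eng and Nt5e had log2 differences of 0.59, -0.19 and -0.21.

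Transcription factors and secreted factors of mesenchyme were higher on ES too. Prrx1, a homeobox factor of limb and facial mesenchyme, was under the floor on mGS and read 1126 on ES, with all 4 of its other compared probe sets in the same direction. Snai2, a repressor of epithelial genes, read 133 and 1717, and Twist2 was at least 8.16-fold higher. The related factors Zeb1 and Zeb2 had log2 differences of -0.13 and, as a bound, -0.07, and 7 of 12 factors reached 2-fold, the median being 1.03. With arrays centred on their medians this number was 5, because Snai1 and Tbx15 lay at the limit. Of 18 secreted factors 14 reached 2-fold, all with ES higher, and the median was 1.89. Averaging probe sets left 8 of 17 and a median of 0.91. The chemokine genes Ccl2 and Ccl7 were at least 32.8-fold and 10.6-fold higher, the macrophage growth factor gene Csf1 8.69-fold, the activin subunit gene Inhba 9.93-fold and Igfbp7 12.1-fold. The gene of the cytokine LIF, which sustains mouse ES cells, read 125 on mGS and 91.5 on ES.

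Germ cell genes were lower on the ES array as a class, and many were low on both arrays. Of 101 on the array, 26 were under the floor on both, and of the 75 compared 25 (33.3%) reached 2-fold with ES lower, against 5.13% of all genes compared, and 3 with ES higher. Their median was -0.62. Of all named genes 58.9% were above the floor on GS, 60.8% on Trp53 KO GS, 59.9% on mGS and 61.0% on ES. For the 101 germ cell genes the numbers, in the same order, were 93, 95, 72 and 56. The summed signal was 370366 on GS, 411695 on Trp53 KO GS, 113417 on mGS and 79254 on ES. Of the 25 lower genes, 6 lie on chromosomes 1 and 11 and 5 on X and Y, and 7 had another probe set to compare, all in the same direction.

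The piRNA pathway had 5 of 13 compared genes (38.5%) lower in ES cells by 2-fold, against 5.13% of all genes. None was higher, and the median was -0.68. Mael, which acts in transposon silencing in the germline, read 12629 on GS, 13383 on Trp53 KO GS, 1956 on mGS and 246 on ES. Piwil2, a Piwi protein that binds piRNAs, read 4571, 9887, 984 and 232 in the same order. The tudor domain genes Tdrd5 and Tdrkh were 2.89-fold and 2.24-fold lower, and Gtsf1, a partner of Piwi proteins, at least 2.14-fold; with values as deposited Gtsf1 missed 2-fold. The germ cell helicase gene Ddx4 went slightly the other way, 567 on mGS and 810 on ES, and Tdrd12 had a log2 difference of 0.74. Rnf17 was alike, 2153 and 2082. Piwil1, Piwil4, Tdrd1, Tdrd9 and Henmt1 were under the floor on both arrays. So 12 of the 18 pathway genes on the array were above the floor in mGS cells, 10 in ES cells and 17 in GS cells. Of all named genes 59.9%, 61.0% and 58.9% were above it, in the same order.

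Among germ cell RNA regulators and testis genes 11 of 21 (52.4%) were lower in ES cells by 2-fold, against 5.13% of all genes. None was higher, and the median was -1.01. Dazl, which controls translation in germ cells, read 25675 on GS, 21031 on Trp53 KO GS, 569 on mGS and 128 on ES. Rpl39l, the testis paralogue of a ribosomal protein, was abundant on mGS, 5952, and 8.43-fold lower on ES at 706; its probe set can share sequence with copies of the gene Rpl39. Sohlh2, a factor of spermatogonial differentiation, read 740 and 190, and Tex14, a gene of germ cell bridges, 1151 and 304. Slc25a31, the testis ADP/ATP carrier, and the X-linked Usp26 were at least 4.08-fold and 4.47-fold lower. Tex19.1, which restrains retrotransposons, read 5314 on mGS and 1352 on ES; unlike the others it was lower on GS, at 934, though not on Trp53 KO GS, at 10085. Taf4b, a germ cell subunit of the TFIID complex, had a log2 difference of -0.23.

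**Figure D4:**
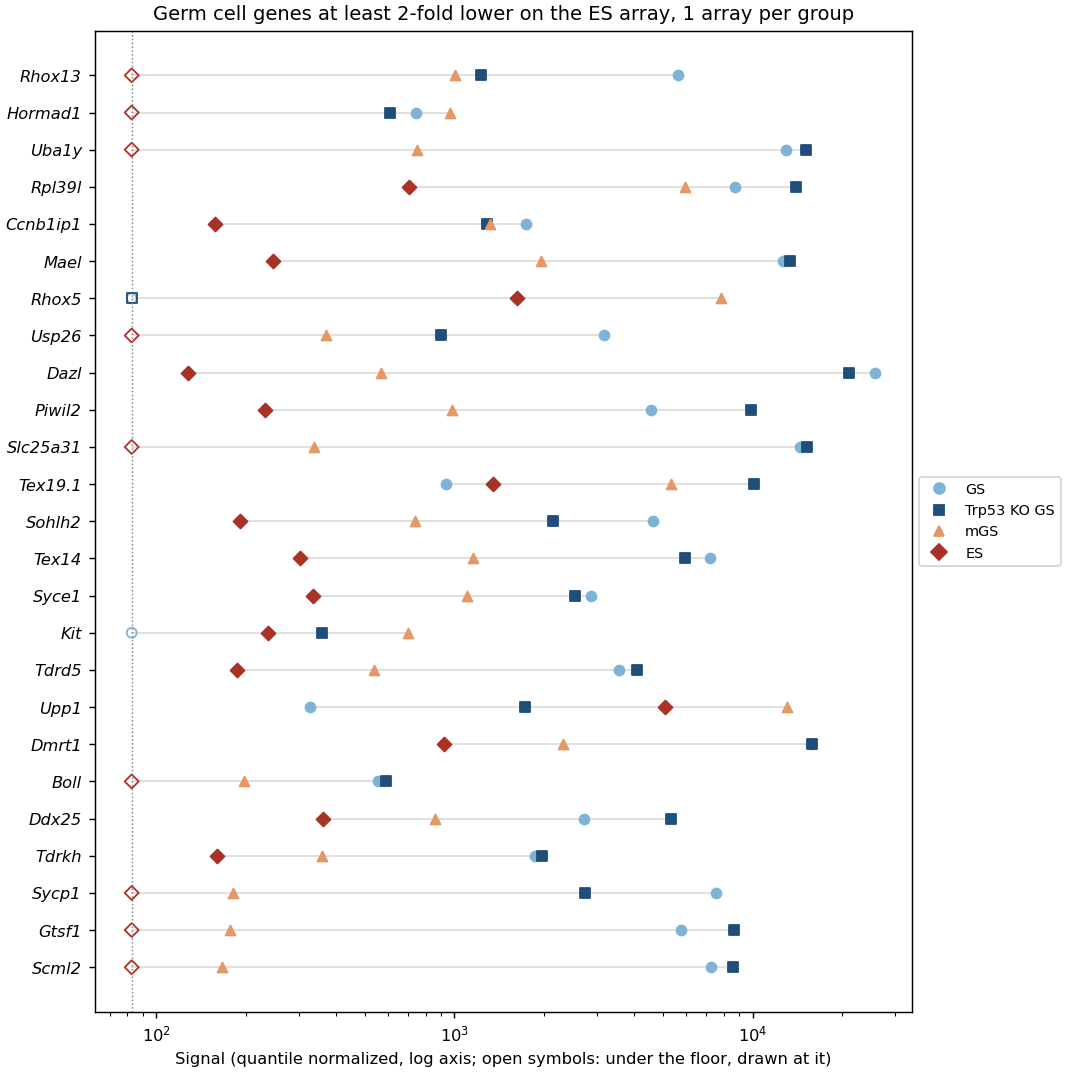
Signal (x, quantile normalized, log axis) on each of the 4 arrays of the 25 germ cell genes 2-fold or more lower in ES cells; open symbols were under the floor and are drawn at it. Dazl, Mael and Sycp1 are highest on the GS arrays, while Rhox5 reads 7866 on mGS, 1624 on ES and lies under the floor on both GS arrays.

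Meiosis genes differed at a few members. Hormad1, an axis protein of meiotic chromosomes, read 743 on GS, 964 on mGS and under the floor on ES. Ccnb1ip1, or Hei10, which is needed for crossing over, read 1745, 1320 and 157, and Syce1, of the central element of the synaptonemal complex, 2881, 1098 and 335. Sycp3, of its lateral element, had the opposite difference, 139 on mGS and 373 on ES. Trip13 and Syce2 were abundant on both arrays, Trip13 at 4006 and 4171. In all 4 of 17 (23.5%) were lower, against 5.13% of all genes, and 1 (5.88%) was higher, against 6.9%. The median was -0.37, and 10 members were under the floor on both arrays.

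Spermatogonial genes had no common direction, with 2 of 18 (11.1%) higher and 3 (16.7%) lower on ES, against 6.9% and 5.13% of all genes compared. Their median was 0.08 and turned to -0.12 with arrays centred on their medians. Ccnd2, a G1 cyclin, read 11311 on GS, 488 on mGS and 3825 on ES, 7.84-fold higher than on mGS, with all 6 of its other probe sets in the same direction. Kit, the receptor of stem cell factor, read 700 on mGS and 237 on ES, and Dmrt1, a factor of the male germline, 2308 and 924. Upp1, a uridine phosphorylase gene, was 2.57-fold lower, with signals of 13055 on mGS and 5082 on ES. On GS, Dmrt1 read 15665 and Upp1 328, and Kit lay under the floor. The genes for the GDNF receptor, Gfra1 and Ret, had log2 differences of 0.34 and, as a bound, 0.10. Of the Rhox homeobox genes Rhox13 was at least 12.1-fold and Rhox5 4.84-fold lower on ES, and Rhox6 and Rhox9 had differences of -0.65 and -0.56.

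Developmental regulators differed at few members, the widest in the neural list. Of 141 on the array, 63 were under the floor on both, and of 78 compared 15 (19.2%) reached 2-fold with ES higher, against 6.9% of all genes, and 3 (3.85%) with ES lower, against 5.13%. The median was 0.29, and 36 of the 78 differences are bounds. Olig1, a helix-loop-helix factor of the oligodendrocyte lineage, was under the floor on mGS, GS and Trp53 KO GS and read 1996 on ES. Its neighbour on chromosome 16, Olig2, was also under the floor on those arrays and read 1182 on ES. The next largest difference of the class was the 8.10-fold of Fst, a signalling inhibitor. Olig1 and Olig2 have 1 probe set each.

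Other neural regulators higher on ES were the homeobox gene Irx3, 102 on mGS and 368 on ES, Sox21, at least 3.50-fold, the Notch-related Hes6, 335 and 987, and the RNA-binding Msi1, at least 2.56-fold. Msi1 read 212 on ES, below its 471 on GS and 643 on Trp53 KO GS. Zic5 was 2.10-fold higher, with 1 of its 2 other probe sets in the same direction. Sox1, Pax3, Pax6, Neurog1, Neurog2 and Hes5, which mark committed neural cells, were under the floor on both arrays. Otx2 and Neurod1 were alike, 1094 and 944 for Otx2 and 501 and 600 for Neurod1. In all 7 of 18 neural regulators (38.9%) were higher, against 6.9% of all genes, and none lower.

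Endoderm regulators gave no member 2-fold apart among 6 compared, where 12% of all genes were. Sox17, Sox7, Foxa1, Foxa2 and Hnf4a lay under the floor on both arrays. Of 8 mesoderm and primitive streak regulators 1 (12.5%, against 6.9% of all genes) was higher, Eomes, with signals of 146 on mGS and 314 on ES. Its other probe set was 1.67-fold higher, and averaging probe sets left 0 of 6 regulators higher. Products of extraembryonic endoderm went both ways: Apoa2, an apolipoprotein gene, read 121 and 1140, whereas Apoc2 of the same family of lipid carriers read 1112 on mGS and was under the floor on ES. Afp and Ttr, which define visceral endoderm, were under the floor on both. Of 9 trophectoderm genes compared 1 (11.1%, against 5.13% of all genes) was lower, Tead4, at least 2.15-fold. With values as deposited Tead4 missed 2-fold. Cdx2 and Elf5 were under the floor on both arrays. The trophectoderm factor gene Tfap2c was abundant on both arrays, 2124 on mGS and 2013 on ES. Above the floor were 66 of the 141 regulators in ES cells, 54 in mGS, 46 in GS and 50 in Trp53 KO GS cells. Of all named genes 61.0%, 59.9%, 58.9% and 60.8% were, in the same order.

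Of 36 Hox genes and cofactors on the array 22 were under the floor on both ES and mGS. Above it were 13 on ES, 5 on mGS, 10 on GS and 9 on Trp53 KO GS. The shares of all named genes above it were 61.0%, 59.9%, 58.9% and 60.8%, in the same order. Hoxb3, Hoxc6 and Hoxc8, which pattern the trunk, were at least 2.17-fold, 2.45-fold and 2.54-fold higher on ES, with signals there of 180, 202 and 210. Hoxb3 read higher still on GS and Trp53 KO GS, at 433 and 229, while Hoxc6 and Hoxc8 were under the floor there. The list had 3 of 14 higher (21.4%, against 6.9% of all genes compared), none lower and a median of 0.49. Averaging probe sets left 1 of 9 higher. Hox genes are expressed in cultured fibroblasts by their position in the body as well as in the embryo; the part of fibroblast RNA in these values was not tested, and the summed signals of fibroblast genes are given above.

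Developmental signals were mostly alike, with 4 of 23 (17.4%) higher and 2 (8.70%) lower on ES, against 6.9% and 5.13% of all genes. Fst, follistatin, a secreted inhibitor of activin, read 165 on mGS and 1338 on ES. Fgf5, a ligand gene of the primed epiblast, read 124 and 417, and Lefty1, an inhibitor of Nodal, 1836 and 4952, while Nodal itself read 2653 and 2336. Bmp4, a ligand that sustains mouse ES cells together with LIF, was 3.28-fold lower on ES, 1421 and 433, and Wnt8a at least 2.05-fold, a difference that missed 2-fold with values as deposited.

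Pluripotency genes were present on both arrays: 52 of 54 on the array were above the floor on mGS and 51 on ES, against 33 on GS. Of all named genes 59.9%, 61.0% and 58.9% were above it, in the same order. The factors Pou5f1 and Sox2 read 10829 and 11518 on mGS and 10189 and 11768 on ES. Within 2-fold lay 18 of 21 core genes, against 88.0% of all genes compared, and their median was -0.27. Nanog read 8044 and 3979, and the dioxygenase gene Tet2 1746 and 736. Lin28a was 2.13-fold higher by 1 probe set and 2.50-fold lower by another, so its direction is not settled.

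The naive factors, which mark the ground state of mouse ES cells, had the lower signal in ES cells for 17 of 19 genes, 6 of them by 2-fold or more, and a median of -0.64. Over the whole pluripotency class 9 of 52 compared genes (17.3%) reached 2-fold with ES lower, against 5.13% of all genes, and 4 with ES higher (7.69%), against 6.9%. Tbx3 read 1282 on mGS and 277 on ES with all 3 other probe sets in the same direction, Nr5a2 3046 and 698, and Prdm14 804 and 214. Pecam1, an adhesion gene of ES cells and endothelium, read 1616 and 332, and Socs3 and Klf2 were 2.16-fold and 2.05-fold lower. Of these 6 genes 4 (Nr5a2, Prdm14, Pecam1 and Socs3) lie on chromosomes 1 and 11, whose genes were lower on ES in general, and Tbx3 and Klf2 lie elsewhere. Klf4, Dppa3 and Tfcp2l1 had log2 differences of 0.25, 0.12 and -0.17. Primed epiblast genes had a median of 0.48, with Fst, Fgf5 and the tight junction gene Cldn6, 2.17-fold, higher and Wnt8a lower among 12.

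Chromosomes 1 and 11 stood apart from the rest. The median log2 difference was -0.37 over 653 genes of chromosome 1 and -0.35 over 998 genes of chromosome 11, and between -0.02 and 0.09 on every other chromosome with at least 20 genes compared. On chromosome 1, 89 genes (13.6%) reached 2-fold with ES lower and 37 (5.67%) higher; on chromosome 11, 95 (9.52%) were lower and 37 (3.71%) higher. Leaving both chromosomes out, a choice made after seeing the data, gave 741 genes higher and 422 lower. The class medians without them were 1.77 for fibroblast or matrix, -0.51 for germ cell, 0.24 for developmental regulator and -0.22 for pluripotency genes. The germ cell genes Mael and Tdrd5, on chromosome 1, and Tex14 and Tex19.1, on chromosome 11, are among those left out.

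**Figure D5:**
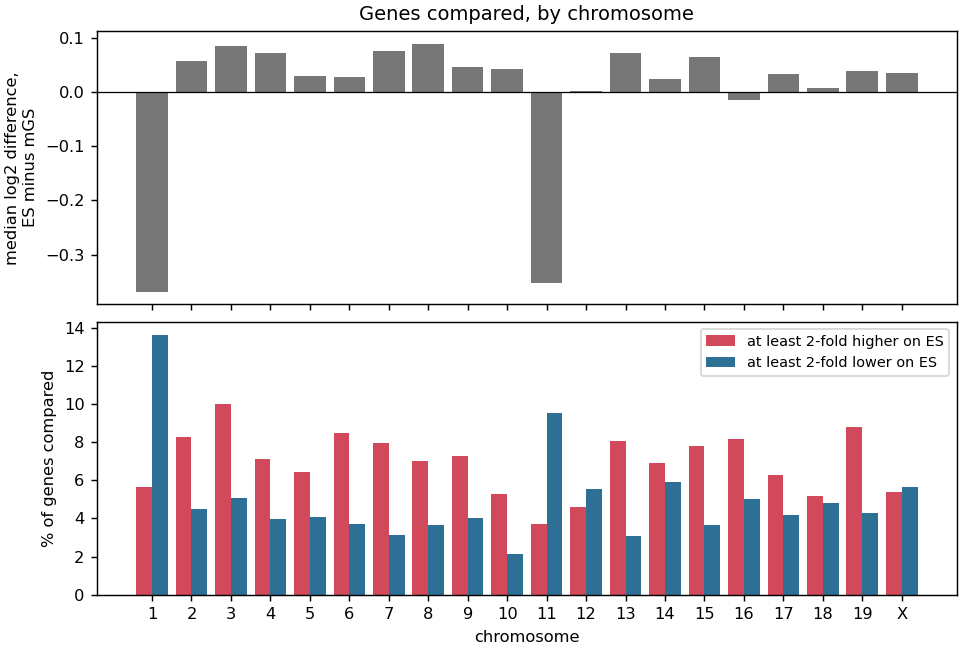
Top, median log2 difference (ES minus mGS) of the compared genes of each chromosome; bottom, percent of them 2-fold or more higher or lower in ES cells. Chromosomes 1 and 11 have medians of -0.37 and -0.35 and the largest shares of lower genes, 13.6% and 9.52%.

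Y-linked genes were lower on ES without exception among the 3 compared. Eif2s3y, a translation factor subunit gene, read 2716 on GS, 2292 on mGS and 167 on ES. Uba1y, a ubiquitin-activating enzyme gene of the germline, read 748 on mGS and was under the floor on ES, and Uty, a histone demethylase paralogue, read 455 on mGS and was under the floor on ES with all 3 other probe sets in the same direction. Kdm5d, Usp9y and Sry were under the floor on both arrays, though Kdm5d and Usp9y read 479 and 1460 on GS. The R1 line is known as derived from a male embryo, and the state of the Y chromosome in this culture was not tested. The X-linked paralogue Eif2s3x read 6715 and 8013, and Xist read 381 and 350 by 1 probe set, while another was at least 2.87-fold higher on ES.

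Imprinted genes, expressed from 1 parental copy, differed at named loci. The maternally expressed RNAs of 1 cluster on chromosome 12, Meg3, Mirg and Rian, were lower on ES: Meg3 read 4455 on mGS and 844 on ES, Mirg 770 and 207, and Rian 450 and 208. Of the 10 other compared Meg3 probe sets 8 were in the same direction. Other maternally expressed genes had ES higher, 7 of 18 in the list (38.9%), against 6.9% of all genes; averaging probe sets left 4 of 14 and took the list's median from 0.36 to 0.05. They included the growth inhibitor genes Grb10, 1016 and 4841, and Cdkn1c, 192 and 676. Of 18 paternally expressed genes 3 (16.7%) were lower, against 5.13% of all genes: Kcnq1ot1 by 2.92-fold, Nnat by 2.25-fold and Mcts2 by 2.15-fold. The growth factor gene Igf2, 252 and 1388, was the 1 higher (5.56%, against 6.9%). The stimulatory G protein gene Gnas and the placental growth regulator Phlda2 read 3062 and 1859 on mGS and 7072 and 3732 on ES. Snrpn, Mest and Dlk1 had log2 differences of 0.03, -0.16 and 0.16.

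Markers of further cell types were mostly low. For the counts below, 6.9% of all genes compared were 2-fold higher on ES and 5.13% lower. Of 14 leukocyte genes 10 were under the floor on both arrays, Ptprc among them, and the 4 compared had a median of 0.56. Cd68, on chromosome 11, was 7.23-fold lower on ES, Csf1r at least 2.04-fold higher (under 2-fold when centred on array medians), and Laptm5 and Lyz2 had log2 differences of 0.29 and, as a bound, 0.83. Of 10 endothelial genes 4 were under the floor on both, Cdh5 among them, and of 6 compared only Egfl7 was lower, 2.01-fold; this missed 2-fold with values as deposited and with probe sets averaged, its other probe sets lying at -0.18 and -0.06. Of 12 Sertoli and Leydig cell genes 7 were under the floor on both and 2 of 5 compared were lower on ES, Wt1 by 2.99-fold and Cyp11a1 by 2.57-fold. The other probe sets of Cyp11a1 were under the floor on both arrays, and averaging probe sets left 1 of 2 genes lower. Among 5 muscle genes the skeletal actin gene Acta1 was higher, 270 on mGS and 1039 on ES, and 1 was lower. The summed leukocyte signal was 1677 on mGS and 937 on ES, of which Cd68 gave 970 and 134, and the endothelial one 1639 and 988. Of 9 epithelial genes 3 were higher on ES, the claudin genes Cldn4 and Cldn7 by 3.25-fold and 3.34-fold and Dsp by 2.06-fold (under 2-fold when centred), and Cdh1 read 4894 and 9237. Among 11 housekeeping genes B2m, of MHC class I, was 3.14-fold higher on ES and the others lay within 2-fold.

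Genes outside these classes also had large differences, though the widest with ES higher belonged to the fibroblast or matrix class. Igf2bp3, an RNA-binding protein gene, read 1504 on GS, 2352 on Trp53 KO GS, 101 on mGS and 2277 on ES, with all 5 other probe sets in the same direction; mGS was the array that stood apart. The fatty acid transporter gene Slc27a2 was 17.9-fold higher on ES, the ribonuclease gene Rnase4 14.4-fold and the G protein subunit gene Gng11 13.7-fold. Flrt2, a membrane guidance gene, read 124 on mGS and 1564 on ES. Cavin2, of caveolae, and Oaf were at least 17.2-fold and 16.9-fold higher.

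With ES lower, the widest differences between signals above the floor on both arrays were those of Lama3 and H3f3b. Lama3, a laminin chain of epithelial basement membranes that is in none of the lists, read 546 on GS, 817 on Trp53 KO GS, 2256 on mGS and 102 on ES, 22.1-fold lower than on mGS. H3f3b, a gene of histone H3.3, read 379 on GS, 128 on Trp53 KO GS, 2855 on mGS and 141 on ES, 20.2-fold lower than on mGS. For this probe set mGS was the array that stood apart. Both rest on 1 probe set that could be compared. Pnma5, on the X chromosome, was 8.73-fold lower and, like many germ cell genes, highest on GS, at 5493. The surface glycoprotein gene Gpa33, 7.53-fold lower, and Inpp5d, a phosphatase gene of blood cells, 7.10-fold, both lie on chromosome 1. Tmem87a was 7.23-fold lower, the centrosomal gene Sfi1 and the epoxide hydrolase gene Ephx2 6.96-fold each, and Aass, of lysine breakdown, 6.90-fold. The other compared probe set of Sfi1 had a log2 difference of only -0.62. H3f3b and Sfi1 lie on chromosome 11.

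Bounds with ES lower included Gpat2, a glycerol phosphate acyltransferase gene of male germ cells, which read 2094 on GS, 544 on mGS and under the floor on ES. Mmrn2, an endothelial matrix gene, was at least 7.43-fold lower with all 3 other probe sets in the same direction. The protease inhibitor gene A2m and the adhesion gene Ceacam20 were at least 7.76-fold and 7.44-fold lower. Cpn1, a carboxypeptidase gene, Ly6g6e, the clock gene Arntl2 and the neuropeptide gene Npy were lower by at least 6.54-fold, 5.93-fold, 5.92-fold and 5.69-fold.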

How the data were processed

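RNA from 4 cultures, 1 array each, was isolated with Trizol and turned into biotinylated target for Affymetrix arrays, per the labels. The deposited unit is a linear intensity for each probe set; no source used here names the summary software. Every array had been scaled to a mean of 500 after 2% trimming at both ends. Arrays have no read depth, and their number limits the precision.

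After removal of 64 controls from 45101 probe sets, arrays differed by 0.29 in their log2 median and by 0.27 in their log2 75th percentile. As both lay above a preset 0.2, quantile normalization over the 4 arrays was applied, which hides any change in total RNA. The platform annotation gave 34945 probe sets 1 symbol, 932 several (not used) and 9160 none; 34741 matched GRCm38.p6 by gene identifier. Each gene is represented by its probe set of highest mean over the arrays. The floor was the array median (log2 6.37); lower values were raised to it, and genes lower on both arrays were not compared. No test was possible with 1 array per group. The steps were tested on simulated data.

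The classes, lists and rule for names were chosen with earlier results of these data known, so their counts are descriptions, not independent support. The rule gave the 15 highest and 15 lowest differences and the 12 largest bounds each way, all but 1 of them named, and up to 6 members of each list per direction among those 2-fold apart, the 3 nearest no difference, and fixed checks, without predicted genes; not every list member it gave is printed. Further genes, named as under the floor or to complete a group, and the promoters and motifs were chosen after their values were seen. Trp53 is not reported here. Alternatives were other scalings, floors, a pseudocount, other choices of probe set, and leaving out chromosomes. Python 3.11.15, numpy 2.4.6, pandas 2.3.3 and matplotlib 3.10.9 were used.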

Additional observations from a re-analysis of the deposited data

How the results depend on the processing

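No paired analysis was possible because each group has 1 array, and for the same reason no replicate could be left out. The floor moved the counts most. Set at the 30th percentile, it gave 1397 genes higher and 1167 lower in ES cells by 2-fold; no floor gave 2747 and 2574, and a pseudocount of 32 with no floor 1221 and 975. These settings admit genes that lie under the array median on both arrays. The counts were 949 and 517 with values as deposited. Centring on array medians, which shifts the median of all genes to -0.10, gave 722 and 758. Averaging the probe sets of a gene took the median of fibroblast or matrix genes to 1.30. Under every alternative run the medians of the 4 classes kept their sign. Of 160 named genes 2-fold apart, 155 stayed so with values as deposited, 153 when centred and 130 of 151 when probe sets were averaged. Lin28a reversed in that last setting, to -0.11 from 1.09. Low signal limits the developmental regulators most, since 63 of 141 lay under the floor on both arrays and 36 differences are bounds.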
